A study of Rattus norvegicus with 13 samples.

Results

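Transcripts of the nuclear-encoded subunits of the mitochondrial respiratory chain and of ATP synthase were measured in control liver, oval cells and preneoplastic foci of the rat. The members were all array probes whose annotated gene symbol began with Nduf (followed by a, b, c, s or v), Uqcr, Cox4 to Cox8 or Atp5, or was Sdha, Sdhb, Sdhc or Sdhd, without the complex I assembly factors named Ndufaf. This gave 62 of 22523 probes, each for a different gene, with 30 in complex I, 4 in complex II, 4 in complex III, 11 in complex IV and 13 in complex V. One of the complex I members, Ndufs6-ps1, is a pseudogene by its present symbol and was kept in the count.

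Illumina expression arrays were hybridised with 13 RNA samples, 2 labelled Control, 6 Oval cells and 5 Preneoplastic foci. Oval cells and foci came from male Fischer rats put through the resistant-hepatocyte model, in which the carcinogen diethylnitrosamine is followed by a diet with 2-acetylaminofluorene, which blocks the growth of normal hepatocytes, and by partial hepatectomy. Both were cut out by laser 1 week after surgery and pooled. Morphology together with CK-19, GSTP and GGT staining served to pick out the oval cells. The control arrays are labelled as liver hepatocytes. In the study's methods they are random areas taken either from normal liver or from rats on the protocol, depending on the passage, so in a comparison with control the cell type and the treatment cannot be told apart. RNA came from fewer animals than there were oval cell arrays, some arrays therefore shared an animal, and p-values measure the spread between arrays and are too small. All foci arrays lay on a slide of their own, so that slide and foci cannot be told apart.

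The respiratory chain sits in the inner mitochondrial membrane and passes electrons from NADH and succinate to oxygen. Complex I takes electrons from NADH and complex II from succinate, complex III hands them to cytochrome c, complex IV reduces oxygen, and complex V, the ATP synthase, uses the resulting proton gradient to make ATP. Complexes I, III, IV and V combine subunits from nuclear genes with a few made from mitochondrial DNA, whereas complex II is wholly nuclear. Hepatocytes are rich in mitochondria and draw on this machinery for urea synthesis, gluconeogenesis and fatty acid oxidation. No named probe on the array belonged to a mitochondrially encoded gene, so only the nuclear part is described here.

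Values are deposited intensities, normalized by the authors by quantiles and given on a linear scale in arbitrary units. A probe was tested when its median exceeded 300 in at least 1 group. Of the 62 members 55 were tested, 27 of complex I, 4 of complex II, 4 of complex III, 8 of complex IV and 12 of complex V, among 6997 tested probes in all. Of these, 53 members passed in every group, and 2, Ndufv3 and Cox6c, passed in some groups only. The remaining 7 members passed in no group, namely Ndufs4, Ndufb4, Ndufs6-ps1, Cox6a2, Cox8b, Cox8c and Atp5mc3. Muscle forms of complex IV were among them. Cox6a2, the heart and muscle form of subunit 6a, was read at 158 and 157 on the control arrays, 152 to 172 in oval cells and 149 to 251 in foci, and Cox8b, the muscle form of subunit 8, lay between 154 and 193 on all 13 arrays.

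The groups were well separated over the whole array. The SD of the log2 difference between a pair of arrays was 0.21 for the control arrays, 0.17 to 0.38 among oval cell arrays and 0.18 to 0.31 among foci arrays, against 0.59 to 1.11 between groups. The summed intensity of 7 biliary and oval cell markers was 1810 to 1939 in control, 19857 to 29666 in oval cells and 3137 to 6337 in foci, and that of 7 focus markers was 5636 to 6288, 12378 to 24693 and 80444 to 99538. Hepatocyte markers summed to nearly the same in oval cells (198670 to 221300) as in control (209850 to 225070), with foci at 186940 to 192700. Such a sum on the quantile scale weighs bright probes most. Of 7 tested hepatocyte markers, 2 were lower and 0 higher by adjusted p in oval cells than in control, with log2 differences from -0.75 to 0.21. Apob and Hnf4a were under 300 in every group. Of 8 stellate cell and matrix markers, Rgs5 alone was under 300 in oval cells, where their sum was 28398 to 38324 against 5357 to 6030 in control and 4912 to 9647 in foci. Erythroid markers summed to 26237 to 29730 in control and to 3154 to 7646.9 elsewhere. The part of these markers' cell types in the subunit values was not tested, and in such bulk samples fewer cells of a type and less RNA per cell cannot be told apart.

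On the quantile scale few respiratory chain subunits differed by 2-fold between the groups. A member was called when it differed by 2-fold or more with an adjusted p under 0.05. In oval cells against control 0 members were called higher and 0 lower, where 13.5% and 12% of all tested probes were (20 members passed an adjusted p of 0.05 there without the fold limit). In foci against control 1 member, Ndufab1, was higher and 0 were lower, against 10.3% and 7.8% of all tested probes. In oval cells against foci 0 were higher and 2, Ndufab1 and Atp5mk, were lower, against 7.96% and 6.73%. With cyclic loess 2 members were called lower in oval cells against control, 0 were called in foci against control and 2 were lower in oval cells against foci. With each array centred on cytosolic ribosomal protein genes, 35, 8 and 5 members were called lower in these comparisons and 0 higher. That centring subtracts the same value from every probe of an array, and the medians of all tested probes moved to -0.99, -0.82 and -0.20. The shares of all tested probes called with these scalings are not given here. All these p-values are from limma with Benjamini-Hochberg adjustment over the 6997 probes.

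Smaller differences were common, as they were over the whole array. By the adjusted p alone, 30 of 55 members were lower in oval cells than in foci and 3 were higher, where 35.9% of all tested probes were lower and 34.1% higher. The 30 include Ndufv3 and Cox6c, which passed the filter only through control and foci and so give no separate support. In foci against control 21 members were higher and 6 lower, beside 32.7% and 32% of all probes. In oval cells against control 4 were higher and 16 lower, beside 36.4% and 34.4%, so that in this comparison neither direction exceeded its share among all probes. Cox6c is among these 16 as well. The 3 comparisons share arrays and are not independent of each other.

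The median log2 difference of the 55 members was -0.19 for oval cells against foci, 0.14 for foci against control and -0.09 for oval cells against control, where the medians of all tested probes were -0.03, 0.01 and 0.01. Array by array, the median of the members relative to the control mean lay at -0.12 to -0.03 in the 6 oval cell arrays and at 0.07 to 0.28 in the 5 foci arrays, with no overlap. With both other scalings tried, the member median kept its direction in oval cells against foci and, with a larger size, in oval cells against control. In foci against control it turned. With cyclic loess in place of quantiles the medians were -0.22 for oval cells against foci, -0.10 for foci against control and -0.37 for oval cells against control. Centred on the cytosolic ribosomal protein genes, themselves higher than control in oval cells and foci on the quantile scale, they were -0.36, -0.69 and -1.09, where all tested probes moved to -0.20, -0.82 and -0.99. That centring subtracts the same value from every probe of an array, so its shift against control holds for the whole array. The member medians minus those of all probes stayed at -0.16, 0.13 and -0.11, as on the quantile scale. With cyclic loess they were -0.19, -0.06 and -0.35. By adjusted p the split in foci against control, 21 higher and 6 lower, became 9 and 19 with cyclic loess and 1 and 51 with the centring. In oval cells against control 4 and 16 became 1 and 39, then 0 and 55, while in oval cells against foci 3 and 30 became 1 and 32, then 0 and 37. The splits with the centring include its shift of the whole array. A higher median in foci than in control thus held on the quantile scale and not on the others. Relative to all tested probes it held with the ribosomal centring as well, and not with cyclic loess.

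**Figure D1:**
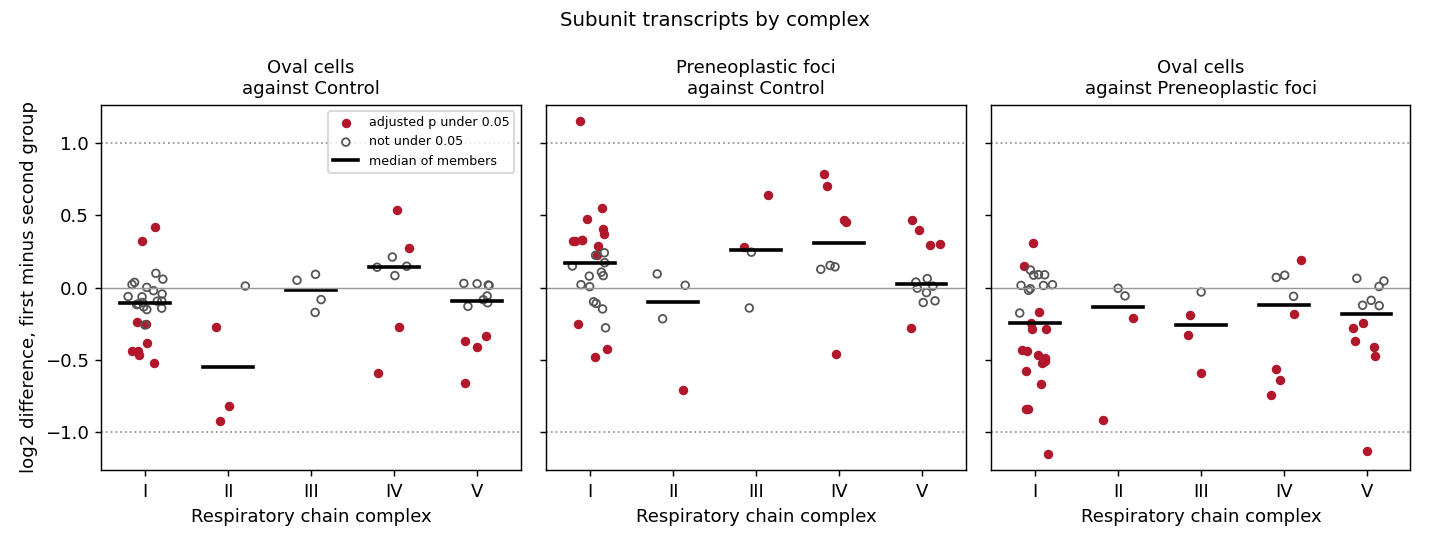
Log2 difference of each tested subunit (points) by complex, in the 3 comparisons, with filled points at an adjusted p under 0.05 and bars at the median of each complex. Dotted lines mark 2-fold. In oval cells against foci the points lie mostly below 0, with medians of -0.24, -0.14, -0.26, -0.12 and -0.18 for complexes I to V. All of these stayed below 0 with both other scalings. The medians of foci against control for complexes I, III and V turned below 0 with cyclic loess, and that of complex IV with the ribosomal centring. That centring moved the median of all tested probes to -0.20 in oval cells against foci and -0.82 in foci against control.

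On 16 of 55 members (29.1%) all 5 foci arrays lay above the other 8, which held for 12.7% of all tested probes. Oval cell arrays were the lowest on 12 members (21.8%), beside 15.1% of all probes, and the highest on 0, beside 18.4%. The 12 include Cox6c, which passed the filter only through control and foci. Control was highest on 4 members, Ndufa1, Sdha, Cox7b and Atp5me, and lowest on 5, Ndufa12, Ndufs5, Cox4i1, Cox5a and Cox7a2l, where 23.2% and 23.4% of all probes were so placed. Foci were lowest on a single member, Ndufa10, beside 10.4%. These counts follow the quantile scale.

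**Figure D2:**
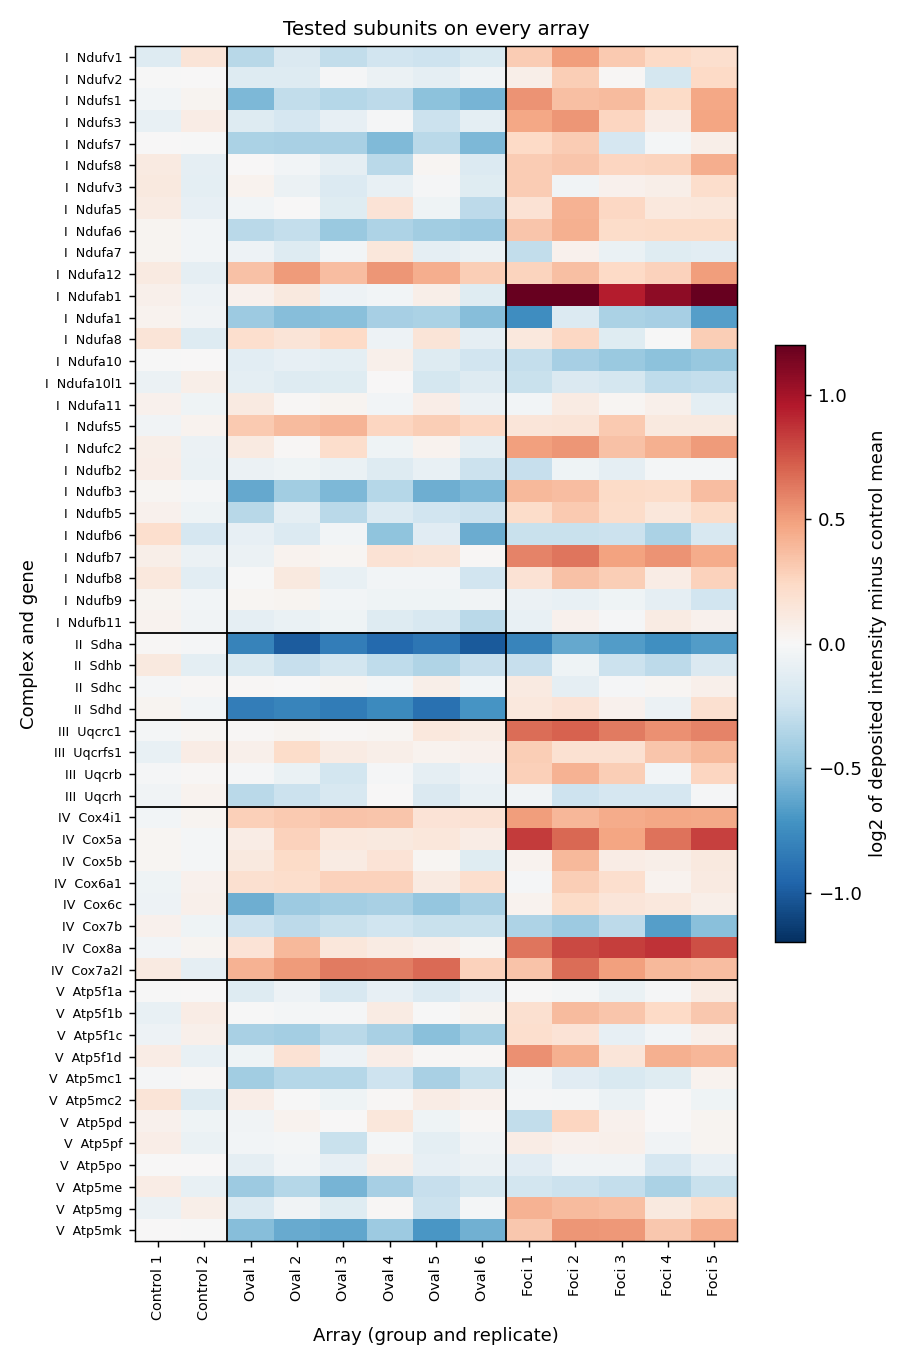
Log2 of the deposited intensity of every tested subunit on each of the 13 arrays, relative to the mean of the 2 control arrays (colour scale from -1.2 to 1.2), ordered by complex and separated by group. The darkest red row is Ndufab1 in foci and the darkest blue rows are Sdha in oval cells and foci and Sdhd in oval cells. The colours follow the quantile scale. In foci against control Ndufab1 stayed above 0 with cyclic loess (0.89) and with the ribosomal centring (0.32). The median of the members in that comparison was -0.10 with cyclic loess and -0.69 with the ribosomal centring. The ribosomal centring put the median of all tested probes at -0.82 there.

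Complex I, the NADH dehydrogenase, held the most members. Its median log2 difference was -0.24 in oval cells against foci, 0.17 in foci against control and -0.10 in oval cells against control, and foci against control turned to -0.04 with cyclic loess and -0.66 with the ribosomal centring. On the quantile scale, among its 27 tested subunits 15 (55.6%), with Ndufv3, were lower and 2 (7.41%) higher in oval cells than in foci. Of all tested probes 35.9% and 34.1% were. In foci against control 11 (40.7%) were higher and 3 (11.1%) lower, beside 32.7% and 32% of all tested probes. In oval cells against control 2 (7.41%) were higher and 7 (25.9%) lower, beside 36.4% and 34.4%. The 6 core subunits of the hydrophilic arm, among them carriers of the flavin and of iron-sulphur clusters, had a median of -0.52 in oval cells against foci. Of these 6 core subunits, 5 (83.3%) were lower. Their median was 0.33 in foci against control, with 4 (66.7%) higher, and -0.20 in oval cells against control, with 3 (50%) lower. For the 14 accessory subunits of the membrane arm the median in oval cells against foci was -0.01, with 6 (42.9%) lower and 2 (14.3%) higher.

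Ndufab1, the mitochondrial acyl carrier protein, which is a complex I subunit and also serves in mitochondrial fatty acid and lipoic acid synthesis, had the largest difference of all members on the quantile scale. Its intensity was 5222 and 4776 on the control arrays, 4529 to 5415 (median 5027) in oval cells and 11678, 11678, 9598, 10513 and 11678 on the foci arrays. Every foci array was thus well above all others, while oval cells and control overlapped. Foci exceeded control by 2.22-fold (1.15 ± 0.10 on the log2 scale, SE; adjusted p 3.79e-07) and oval cells by 2.22-fold (adjusted p 8.40e-09). Oval cells against control gave 0.00 with a 95% interval of -0.22 to 0.22. On the other scales foci against control was 0.89 with cyclic loess and 0.32 with the ribosomal centring, both under 2-fold, and oval cells against foci remained at -1.17 and -1.32.

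Ndufs1, the largest subunit of complex I and a carrier of iron-sulphur clusters, lay at 3 levels. It measured 2760.5 and 2875 in control, 1911 to 2294 (median 2114) in oval cells and 4096, 3619, 3666, 3303 and 3898 in foci, and no group overlapped another. Oval cells were 1.79-fold below foci (log2 -0.84 ± 0.08, adjusted p 2.39e-07) and 1.35-fold below control (adjusted p 0.00182), and foci were 1.32-fold above control (adjusted p 0.0044), which turned to -0.43 with the ribosomal centring. Ndufv1, the flavoprotein that binds NADH, measured 1738 and 2156 in control, 1532 to 1722 (median 1638) in oval cells and 2389, 2747, 2408, 2291 and 2230.3 in foci. It was 1.49-fold lower in oval cells than in foci (adjusted p 9.04e-06). Its partner Ndufv2 differed between oval cells and foci by -0.18 (95% interval -0.36 to 0.01), which did not pass (adjusted p 0.0774) but did without foci replicate 4 (-0.25, adjusted p 0.00793).

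Accessory subunits of complex I went both ways. Ndufb3, a small subunit of the membrane arm, measured 4192 and 4046 in control, 2698 to 3241 (median 2831) in oval cells and 5397, 5308, 4814, 4809 and 5323 in foci, so that oval cells were 1.79-fold below foci (adjusted p 7.22e-08) and 1.43-fold below control (adjusted p 1.63e-04). Ndufa6, of the LYR protein family that holds the acyl carrier protein on the complex, measured 9598 and 9195 in control, 6917 to 7718 in oval cells and 10923 to 12616 in foci, and was 1.59-fold lower in oval cells than in foci (adjusted p 3.06e-07). Ndufb7 and Ndufc2, both of the membrane arm, were higher in foci than in control by 1.46-fold and 1.39-fold (adjusted p 1.47e-04 and 7.70e-04), which turned to -0.28 and -0.36 with the ribosomal centring, with oval cells close to control (log2 0.06 and 0.04). Ndufa12, an accessory subunit of the hydrophilic arm, was lowest in control on the quantile scale. It measured 5000.3 and 4289 there, 5668 to 6696 (median 6129) in oval cells and 5454 to 6552 in foci, and the rise in oval cells (1.34-fold, adjusted p 0.00175) turned to -0.58 with the ribosomal centring. Outside the rule for named genes, Ndufs5 and Ndufa10 were the 2 complex I members higher in oval cells than in foci, by 0.15 and 0.31 on the log2 scale. Ndufa10 measured 3782 and 3824 in control, 3234 to 3966 in oval cells and 2712 to 3121 in foci, and its near-identical copy Ndufa10l1 makes that value uncertain.

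With only 2 control arrays, several small differences from control rested on 1 of them. Without control replicate 1, foci against control no longer passed for Ndufv1 (0.16, adjusted p 0.299). Without control replicate 2 it no longer passed for Ndufb3 (0.29), Ndufa12 (0.22) and Ndufa6 (0.26), nor did oval cells against control for Ndufa12 (0.31) and Ndufv1 (-0.09). Ndufv1 in oval cells against control also failed without oval cell replicate 1 (-0.24), 3 (-0.24) or 5 (-0.25).

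Complex II, succinate dehydrogenase, which also belongs to the citrate cycle, had Sdha, Sdhb and Sdhd lower in oval cells than in control, whereas Sdhc passed in no comparison on the quantile scale. Sdha, the flavoprotein that binds succinate, measured 4784 and 4716 in control, 2367 to 2730.1 (median 2547) in oval cells and 2747, 3098, 2978, 2858 and 2978 in foci. Control was thus above all 11 oval cell and foci arrays. The transcript was 1.9-fold lower in oval cells than in control (log2 -0.92 ± 0.09, adjusted p 2.68e-07) and 1.64-fold lower in foci (log2 -0.71 ± 0.09, adjusted p 7.54e-06), and oval cells lay 1.16-fold below foci (adjusted p 0.00808). Both differences from control were larger on the other scales, at -1.10 and -0.88 with cyclic loess and -1.92 and -1.54 with the ribosomal centring. With that centring the medians of all tested probes were -0.99 and -0.82.

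Sdhd, a membrane anchor that helps to bind ubiquinone, was low in oval cells alone on the quantile scale. It measured 6141 and 5894 in control, 3226 to 3684 (median 3426) in oval cells and 6564, 6738, 6248, 5729 and 6886 in foci. The 6 oval cell arrays lay below all others, while control and foci overlapped. Oval cells were 1.88-fold below foci (log2 -0.91 ± 0.07, adjusted p 2.13e-08) and 1.77-fold below control (log2 -0.82 ± 0.09, adjusted p 1.28e-06). Foci against control gave 0.09 with a 95% interval of -0.10 to 0.29, and -0.74 with the ribosomal centring. The other anchor, Sdhc, measured 9333 and 9541 in control, 9228 to 9936 in oval cells and 8770.2 to 10171 in foci, and differed by 0.01, 0.02 and -0.01, with an interval of -0.13 to 0.12 for oval cells against foci. Against control, Sdhc was lower with cyclic loess (-0.32 in oval cells and -0.28 in foci, adjusted p 0.00307 and 0.00888) and with the ribosomal centring (-0.99 and -0.81). Sdhb, the iron-sulphur subunit, was 1.21-fold lower in oval cells than in control (adjusted p 0.0188), which failed without control replicate 1 (-0.16, adjusted p 0.279). In foci against control it differed by -0.22 (adjusted p 0.0659), and passed without control replicate 2 (-0.33) or foci replicate 2 (-0.26). The complex had a median of -0.55 in oval cells against control, below 0 with both other scalings. The ribosomal centring moved the median of all tested probes to -0.99 in that comparison.

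**Figure D3:**
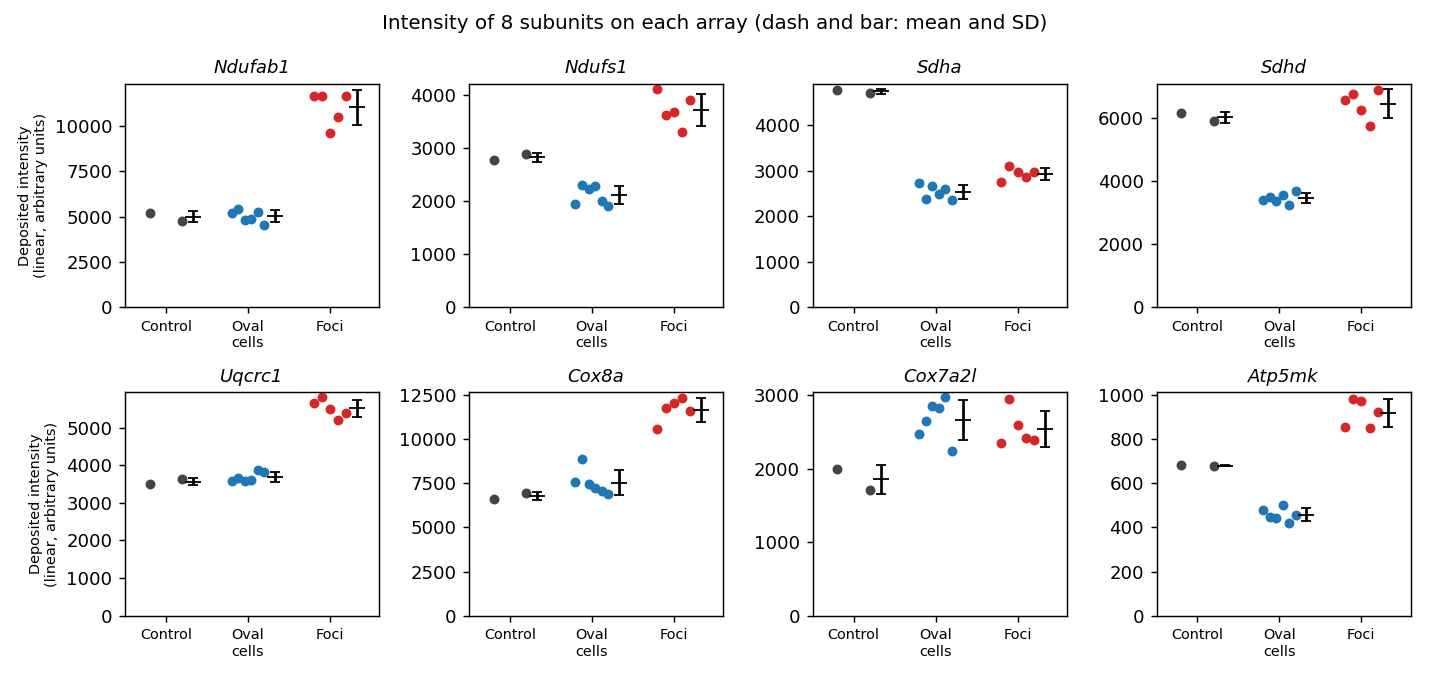
Deposited intensity (linear scale, arbitrary units, axes from 0) of 8 subunits on every array, with each group's mean and SD beside the points. Ndufab1, Uqcrc1 and Cox8a are high in foci alone, Sdhd is low in oval cells alone, and Sdha is high in control alone. Ndufs1 and Atp5mk fall into 3 levels, and Cox7a2l is low in control alone. With the ribosomal centring the rises of Uqcrc1, Cox8a, Cox7a2l, Ndufs1 and Atp5mk above control turned negative. That centring moved the median of all tested probes to -0.99 in oval cells against control and -0.82 in foci against control.

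In complex III, which passes electrons from ubiquinol to cytochrome c, 3 of 4 subunits were lower in oval cells than in foci and 0 higher. Of all tested probes 35.9% were lower and 34.1% higher. Uqcrc1, a core protein related to the mitochondrial processing peptidases, measured 3497 and 3627 in control, 3587 to 3882 (median 3630.3) in oval cells and 5651, 5816, 5481, 5213 and 5389.6 in foci. Foci lay above every other array, and exceeded control by 1.56-fold (log2 0.64 ± 0.08, adjusted p 8.06e-06) and oval cells by 1.5-fold (adjusted p 4.41e-07). Against control the difference was 0.43 with cyclic loess and -0.19 with the ribosomal centring. Uqcrfs1, the Rieske iron-sulphur protein, measured 7940.4 and 9023 in control, 8708 to 9857 (median 8860.5) in oval cells and 10387, 9626, 9578, 10633 and 11117 in foci. It was 1.21-fold higher in foci than in control (adjusted p 0.0166), a call lost without control replicate 1 (0.19), and the sign turned with cyclic loess (-0.018) and the ribosomal centring (-0.55). Its difference between oval cells and foci (-0.19, adjusted p 0.0221) was lost without foci replicate 5 (-0.16). Uqcrb, a small subunit near the ubiquinone site, was 1.25-fold lower in oval cells than in foci (adjusted p 0.00176), and in foci against control passed without foci replicate 4 (0.31). Uqcrh, the hinge protein, differed between oval cells and foci by -0.03 with an interval of -0.19 to 0.13.

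Complex IV, cytochrome c oxidase, was the one complex whose median in oval cells was above control, at 0.14, and this turned to -0.18 with cyclic loess and -0.86 with the ribosomal centring. Of its 8 tested subunits 4 (50%) were higher and 1 (12.5%) lower in foci than in control, beside 32.7% and 32% of all tested probes. In oval cells against control 2 (25%) were higher and 2 (25%) lower, beside 36.4% and 34.4%. In oval cells against foci 1 (12.5%) was higher and 4 (50%) lower, beside 34.1% and 35.9%. Cox8a, the form of subunit 8 found in liver, measured 6614 and 6928 in control, 6901 to 8873 (median 7333) in oval cells and 10547, 11713, 12003, 12331 and 11589 in foci. All foci arrays were above all others. Foci exceeded control by 1.72-fold (log2 0.79 ± 0.10, adjusted p 1.24e-05) and oval cells by 1.56-fold (adjusted p 2.54e-06). Against control the difference was 0.50 with cyclic loess and -0.044 with the ribosomal centring. Cox5a, a subunit on the matrix side, measured 5912 and 5718 in control, 6183 to 7036 (median 6330.5) in oval cells and 10418, 9384, 8064, 9133 and 10238 in foci, 1.63-fold above control (adjusted p 3.47e-05) and 1.47-fold above oval cells (adjusted p 8.91e-06), with -0.13 against control under the ribosomal centring. Its counterpart Cox5b, on the same side, measured 5608 and 5446, 4982 to 6479.5 and 5707 to 7237 in the 3 groups, and did not pass in any comparison (log2 0.08, 0.14 and -0.06).

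Other complex IV subunits were ordered differently. Cox4i1, the common form of subunit 4 and a site of regulation by ATP, rose from 7583 and 7963 in control to 8729.7 to 9874 (median 9591) in oval cells and 10998, 10271, 10574, 10734 and 10633 in foci, by 1.21-fold and 1.37-fold (adjusted p 0.00736 and 2.46e-04). With the ribosomal centring both turned (-0.73 and -0.37). In oval cells the difference was -0.05 with cyclic loess, and it failed without control replicate 1 (0.24). Cox7a2l, which joins complexes III and IV into supercomplexes, measured 1996 and 1716 in control, 2247 to 2973 (median 2738) in oval cells and 2351, 2949, 2595, 2424 and 2393 in foci. Both groups were above control on the quantile scale, by 1.45-fold and 1.38-fold (adjusted p 0.00116 and 0.00451), and overlapped each other. The second of these calls was lost without control replicate 2 (0.36), and both signs turned with the ribosomal centring (-0.46 and -0.36). Cox6a1, the form of subunit 6a in liver, differed by 0.21 between oval cells and control (adjusted p 0.0563), and passed without oval cell replicate 5 (adjusted p 0.0468) or without foci replicate 1 or 2 (adjusted p 0.048 and 0.0398). Cox6c, a small membrane subunit, was dim, at 329 and 357 in control, 228 to 262 (median 255) in oval cells and 353, 400.5, 379, 373 and 359.7 in foci. With all oval cell arrays under 300 it was at least 1.14-fold higher in control and at least 1.24-fold higher in foci. It passed the filter only through control and foci, so its adjusted p-values (6.36e-05 and 3.21e-07) are no separate support. Cox6c is among the members counted as lower in oval cells. Ndufv3 of complex I likewise passed only through control and foci, with medians of 317 and 332 against 299 in oval cells. It is counted as lower in oval cells than in foci, and this is no separate support either. Cox7b, named after its values were seen as the single complex IV member higher in oval cells than in foci, lay at 17502 and 16287 in control, 13542 to 14327 in oval cells and 10668 to 13542 in foci.

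Complex V, the ATP synthase, had 12 tested subunits. Of these, 6 (50%) were lower and 0 higher in oval cells than in foci, beside 35.9% and 34.1% of all tested probes. In foci against control 4 (33.3%) were higher and 1 (8.33%) lower, beside 32.7% and 32%. In oval cells against control 0 were higher and 4 (33.3%) lower, beside 36.4% and 34.4%. Both shares of 33.3% were near those of all tested probes. Atp5mk, a small protein of the membrane part that helps to hold ATP synthase dimers together, had the second of the 2-fold differences. It measured 682 and 678 in control, 419 to 502 (median 452) in oval cells and 854, 984, 974, 852 and 922 in foci, with no overlap between any groups. Oval cells were 2.19-fold below foci (log2 -1.13 ± 0.07, adjusted p 6.75e-09) and 1.58-fold below control (adjusted p 2.71e-05). Foci were 1.39-fold above control (adjusted p 8.61e-04), which turned to -0.36 with the ribosomal centring, while oval cells against foci stayed past 2-fold on the other scales (-1.11 and -1.30).

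The catalytic head of the ATP synthase, its F1 part, moved less. Atp5f1b, the catalytic beta subunit, measured 23425 and 26629 in control, 24568 to 26808 (median 24945) in oval cells and 28621, 32577, 31514, 29476 and 31204 in foci, so that foci lay above all other arrays, by 1.22-fold over oval cells (adjusted p 1.00e-03). Its rise over control (0.30, adjusted p 0.00785) turned to -0.12 with cyclic loess and -0.53 with the ribosomal centring, and failed without control replicate 1 (0.20). The alpha subunit Atp5f1a differed from control by -0.13 in oval cells and -0.00 in foci, neither past the test, with intervals of -0.30 to 0.04 and -0.18 to 0.17. Atp5f1c, the gamma subunit of the rotating shaft, measured 7902 and 8586 in control, 5805 to 6564 (median 6245) in oval cells and 9495, 9228, 7707, 8064 and 8615 in foci, and was 1.39-fold lower in oval cells than in foci (adjusted p 2.58e-05) and 1.33-fold lower than in control (adjusted p 0.00124). Atp5f1d, the delta subunit of the same shaft, was 1.32-fold higher in foci than in control (adjusted p 0.00567), a call lost without control replicate 2 (0.30) and turned to -0.43 with the ribosomal centring.

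The mature c subunit, whose ring turns in the membrane, is the same protein from the genes Atp5mc1, Atp5mc2 and Atp5mc3, which differ in the targeting sequence that is cut off. Atp5mc1 measured 16158 and 16449 in control, 12197 to 13746 (median 12848) in oval cells and 15947, 14790.0, 14374, 14739 and 16788 in foci, and was 1.26-fold lower in oval cells than in control (adjusted p 0.00294). Atp5mc2 measured 6666 and 5397, 5796 to 6361 and 5661 to 6016, and differed by 0.03 and -0.03 from control (intervals -0.16 to 0.22 and -0.23 to 0.16). Atp5mc3 lay between 153 and 213 on all arrays, under the limit. Atp5mg, the g subunit of the membrane part, was 1.33-fold lower in oval cells than in foci (adjusted p 2.45e-04). Its rise in foci over control (0.30, adjusted p 0.0212) was lost without control replicate 1 (0.23) and turned to -0.53 with the ribosomal centring.

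Nuclear subunit genes are known to share promoter elements for the factors NRF1, GABP (an ETS factor) and YY1. Promoter windows of RefSeq (assembly GRCr8), from 250 bases before to 50 after the start, were found for 54 of the 62 members and searched on both strands for the letters CGCATGCG (NRF1, a palindrome), CCGGAAG (ETS) and AAGATGGC (YY1). The NRF1 letters were in 7 member windows (13%) against 1.66% of all 33469 windows of this length, the ETS letters in 16 (29.6%) against 8.75%, and the YY1 letters in 10 (18.5%) against 3.17%. At least 1 of them was in 24 windows (44.4%) against 12.6%. Median GC content was 57.5% in member windows and 51.7% in all windows. Member windows and all windows were matched for neither gene type nor GC content. The NRF1 letters were in 5 of 12 complex V windows and in 1 of 26 of complex I. The last 3 letters of the ETS motif are the first 3 of the YY1 motif, and 0 member windows held the joined form. A match describes the sequence and shows no binding.

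Shown here are the windows of the 6 members with the largest log2 differences in any comparison on the quantile scale, because the results above turn on them. Each runs 5′ to 3′ along its gene, and capitals mark the matches in either orientation. Those of Ndufab1, Atp5mk, Sdha, Sdhd, Ndufs1 and Ndufb3 lie at chr1:186089287-186089586, - strand; chr1:255921998-255922297, - strand; chr1:30764303-30764602, + strand; chr8:59850592-59850891, - strand; chr9:72073556-72073855, - strand; and chr9:67623167-67623466, + strand.
Ndufab1: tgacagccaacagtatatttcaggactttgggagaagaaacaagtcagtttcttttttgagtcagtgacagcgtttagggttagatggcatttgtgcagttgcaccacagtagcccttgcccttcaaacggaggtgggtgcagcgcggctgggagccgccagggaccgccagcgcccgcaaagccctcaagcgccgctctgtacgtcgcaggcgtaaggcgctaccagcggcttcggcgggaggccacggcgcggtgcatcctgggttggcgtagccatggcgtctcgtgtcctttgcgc
Atp5mk: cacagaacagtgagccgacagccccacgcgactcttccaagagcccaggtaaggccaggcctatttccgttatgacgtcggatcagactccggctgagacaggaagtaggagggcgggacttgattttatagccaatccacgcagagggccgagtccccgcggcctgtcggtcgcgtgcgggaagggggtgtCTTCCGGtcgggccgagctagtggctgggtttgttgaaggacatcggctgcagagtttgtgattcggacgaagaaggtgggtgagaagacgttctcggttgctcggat
Sdha: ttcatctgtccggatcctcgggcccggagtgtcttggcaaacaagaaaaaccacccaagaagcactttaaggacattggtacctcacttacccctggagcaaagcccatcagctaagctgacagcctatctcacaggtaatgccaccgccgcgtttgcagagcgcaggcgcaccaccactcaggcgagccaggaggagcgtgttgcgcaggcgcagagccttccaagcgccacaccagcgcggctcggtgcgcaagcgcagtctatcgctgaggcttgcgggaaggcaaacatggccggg
Sdhd: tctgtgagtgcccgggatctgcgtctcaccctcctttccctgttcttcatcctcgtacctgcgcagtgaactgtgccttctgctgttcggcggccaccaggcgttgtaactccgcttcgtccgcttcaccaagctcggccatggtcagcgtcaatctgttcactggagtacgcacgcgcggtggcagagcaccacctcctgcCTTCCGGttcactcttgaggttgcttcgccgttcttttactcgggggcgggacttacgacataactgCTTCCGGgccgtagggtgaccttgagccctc
Ndufs1: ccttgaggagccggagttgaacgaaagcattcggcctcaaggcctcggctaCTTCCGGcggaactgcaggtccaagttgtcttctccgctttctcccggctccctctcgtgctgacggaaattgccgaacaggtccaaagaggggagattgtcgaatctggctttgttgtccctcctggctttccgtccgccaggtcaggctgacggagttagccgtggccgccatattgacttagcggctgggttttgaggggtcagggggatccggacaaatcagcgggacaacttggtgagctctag
Ndufb3: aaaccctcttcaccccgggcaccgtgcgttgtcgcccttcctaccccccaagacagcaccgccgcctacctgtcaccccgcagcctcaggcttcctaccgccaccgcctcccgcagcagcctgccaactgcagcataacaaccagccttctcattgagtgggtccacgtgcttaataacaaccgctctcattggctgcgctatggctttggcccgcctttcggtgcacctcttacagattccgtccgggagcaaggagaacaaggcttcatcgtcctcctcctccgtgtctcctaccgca
The windows of Ndufab1, Sdha and Ndufb3 hold none of the letters searched. Atp5mk and Ndufs1 have 1 ETS match each, and Sdhd has 2. Windows with and without matches thus occurred among these members.

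Other mitochondrial genes were ordered like the subunits in oval cells against foci. Mitochondrial ribosomal proteins build the subunits that mitochondrial DNA encodes. Among 54 tested, 44 (81.5%) were lower and 3 (5.56%) higher in oval cells than in foci by adjusted p, with a median log2 difference of -0.48. Of all tested probes 35.9% were lower and 34.1% higher in this comparison. In foci against control 36 (66.7%) were higher and 3 (5.56%) lower (median 0.36), beside 32.7% and 32% of all tested probes. In oval cells against control 13 (24.1%) were higher and 17 (31.5%) lower (median -0.08). Both of these shares were under those of all tested probes, 36.4% and 34.4%. Assembly factors of the complexes, 25 tested, had medians of -0.46, 0.18 and -0.26, with 18 (72%) lower and 2 (8%) higher in oval cells than in foci. Of 10 tested citrate cycle and pyruvate dehydrogenase genes 8 (80%) were lower and 0 higher in oval cells than in foci. In foci against control 8 (80%) were higher and 2 (20%) lower. Among 12 outer membrane and import genes 9 (75%) were lower and 0 higher in oval cells than in foci. In foci against control 10 (83.3%) were higher and 0 lower. The medians of all 4 lists in oval cells against foci were below 0 with both other scalings. Those in foci against control, above 0 with quantiles and cyclic loess, were -0.47, -0.65, -0.37 and -0.20 with the ribosomal centring. That centring moved the median of all tested probes to -0.82 in foci against control and to -0.20 in oval cells against foci. Its shift thus holds for the whole array, and in foci against control all 4 lists stayed above the median of all tested probes.

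Among the electron carriers beside the complexes most were lower than control. Of 9 tested, 6 (66.7%) were lower and 1 (11.1%) higher in oval cells, beside 34.4% and 36.4% of all tested probes. In foci 5 (55.6%) were lower and 1 (11.1%) higher, beside 32% and 32.7%. Their medians were -0.64 and -0.28, and -0.68 and -0.26 with cyclic loess. With the ribosomal centring they were -1.64 and -1.11, where all tested probes moved to -0.99 and -0.82. In oval cells 1 carrier was called lower at 2-fold (log2 -1.52), and in foci 1 was called higher (log2 1.41). Etfdh, which feeds electrons from fatty acid oxidation into the ubiquinone pool, had means of 4096 ± 39.0 (SD, n = 2) in control, 1509 ± 348 (n = 6) in oval cells and 2153 ± 211 (n = 5) in foci. Cycs, which codes for cytochrome c, did not pass in any comparison (log2 0.06, 0.23 and -0.17). Among regulators of mitochondrial biogenesis, 6 of 12 on the array were tested, and Ppargc1a and Nrf1 stayed under 300 in every group. By adjusted p 4 of these 6 (66.7%) were lower and 1 (16.7%) higher in oval cells than in foci, beside 35.9% and 34.1% of all tested probes. In foci against control 3 (50%) were higher and 2 (33.3%) lower, beside 32.7% and 32%. In oval cells against control 1 (16.7%) was higher and 3 (50%) lower, beside 36.4% and 34.4%. The higher ones in oval cells were Yy1 against foci (log2 0.30, adjusted p 0.0245) and Pprc1, a coactivator related to Ppargc1a, against control (0.97, adjusted p 2.21e-05), where Pprc1 was also higher in foci (0.84, adjusted p 0.000145). With the ribosomal centring 0 of the 6 were higher in any of the 3 comparisons. That centring moved the medians of all tested probes to -0.99 and -0.82 against control and to -0.20 in oval cells against foci. Polrmt, the mitochondrial RNA polymerase, had means of 703 ± 9.69 in control, 430.4 ± 25.0 in oval cells and 854 ± 66.5 in foci, and its partner Tfb2m 1119 ± 38.8, 621 ± 50.7 and 1178 ± 30.4. Both were at least 2-fold lower in oval cells than in foci (log2 -1.12 and -1.01, adjusted p 8.05e-09 and 1.89e-08). Tfam, which packages mitochondrial DNA, was lower in oval cells than in foci by a smaller amount (log2 -0.36, adjusted p 0.00133).

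Cytosolic ribosomal proteins went another way. Of 56 tested, 54 (96.4%) were higher in oval cells than in control and 51 (91.1%) in foci, with medians of 0.90 and 0.83. Of all tested probes 36.4% and 32.7% were higher there. In oval cells against foci 19 (33.9%) were higher and 11 (19.6%) lower, beside 34.1% and 35.9% of all tested probes. With cyclic loess the medians were 0.56 and 0.47, and the same genes served as the reference of the ribosomal centring.

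**Figure D4:**
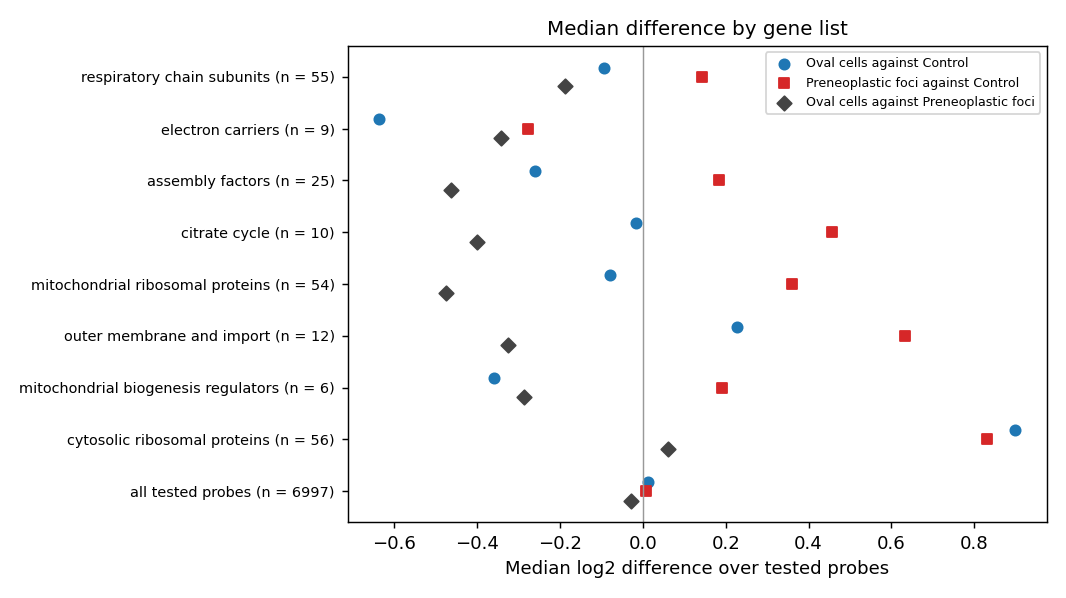
Median log2 difference over the tested probes of each gene list, for oval cells against control (circles), foci against control (squares) and oval cells against foci (diamonds), with all 6997 tested probes in the last row. Respiratory chain subunits lie at -0.09, 0.14 and -0.19; all values are on the quantile scale. In foci against control the subunits were at -0.10 with cyclic loess. Every list with a value above 0 there, apart from the cytosolic ribosomal proteins, turned below 0 with the ribosomal centring. That centring takes the cytosolic ribosomal proteins as its reference and moved the median of all tested probes to -0.82 in this comparison.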

How the data were processed

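RNA of control liver, oval cells and preneoplastic foci was read on Illumina arrays (2, 6 and 5 samples, grouped by the labels, with replicates numbered in order of deposition). The deposited values are linear intensities. The authors used BeadStudio, given as version 3.0.19.0 in the submitters' processing notes, and quantile normalization. Low values show no subtraction of background. Quantiles give all arrays 1 distribution, so a shift of most genes cannot be seen. A further table with 26 per-sample columns whose names match no label was not used.

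Values were corrected with normexp (offset 50), normalized by quantiles, taken to log2 and fitted over all 13 arrays with limma (version 3.58.1, R version 4.3.3), with Benjamini-Hochberg adjustment over the 6997 probes whose median intensity exceeded 300 in at least 1 group. Calls needed a difference of 2-fold or more and an adjusted p under 0.05, and counts by adjusted p alone are also given. The offset shrinks the fold changes of dim probes. The fit was tested on simulated data. With arrays, the number of samples limits the precision. Of the probes, 13793 had 1 gene symbol in the annotation, 0 had several and 8730 are unnamed here, and 13752 matched a RefSeq gene (GRCr8). RefSeq lists pseudogenes named after 27 members, and cross-hybridisation was not tested. Named genes are members called in any comparison, the 3 with the smallest adjusted p per complex and comparison, and a fixed list of core subunits and isoforms. Ndufs5, Ndufa10, Ndufa1, Cox7b and Atp5me were added after their values were seen. The members, lists and tests were chosen with earlier results of these data known. Alternatives were other filters, offsets, scalings, array weights, an ordinary t-test and leaving out each array. The study names Student's t-test in its general statistics, and for its arrays a random-variance model with permutations, which was not run here.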

Additional observations from a re-analysis of the deposited data

Results flagged for a closer look

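In 5 of 110 combinations of a tested member and an oval cell or foci group (4.55%), 1 array stood apart from the rest of its group, where chance gives about 1 in 20. Oval cell replicate 2 was the highest of its group for Uqcrfs1 (9857, next 9067), Cox5a (7036, next 6388) and Cox8a (8873, next 7583). Foci replicate 3 was the highest for Ndufs5 (8206, next 7385) and foci replicate 2 for Cox5b (7237, next 5980). The control group, with 2 arrays, could not be examined in this way.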

How the results depend on the processing

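The 2-fold counts (0 higher and 0 lower in oval cells against control, 1 and 0 in foci against control, 0 and 2 in oval cells against foci) and the direction of oval cells against foci were the same without any one array, with other offsets, filters or array weights, in a fit of the groups compared and with the ordinary t-test. Scaling changed the comparisons with control. The ribosomal centring subtracts the same value from every probe of an array, and its reference genes had medians of 0.90 and 0.83 above control. Relative to all tested probes, the member medians with it stayed at -0.11 in oval cells against control and 0.13 in foci against control. With cyclic loess they were -0.35 and -0.06, and the cause of that change was not tested. With cyclic loess, oval cells against control had 1 member higher and 39 lower by adjusted p, 2 called lower and a median of -0.37; foci against control had 9 higher and 19 lower, 0 called higher and a median of -0.10; oval cells against foci had 1 higher. Centred on ribosomal protein genes, oval cells against control had 0 higher and 55 lower, 35 called lower and a median of -1.09; foci against control had 1 higher and 51 lower, 0 called higher, 8 called lower and a median of -0.69; oval cells against foci had 0 higher, 5 called lower and a median of -0.36. The filter of the methods left 4 members, with 0 higher and 2 lower in oval cells against control (median -0.33), 3 and 0 in foci against control (0.63) and 0 and 4 in oval cells against foci (-1.02), by its own construction on fewer genes. In oval cells against foci 1 member was higher without a filter and 5 with the ordinary t-test. In foci against control 14 were higher by adjusted p without a filter, where 21 were with it.

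Leaving out 1 array at a time, oval cells against control had 2 to 5 higher (2 without control replicate 1) and 11 to 16 lower by adjusted p, with medians of -0.11 to -0.05. Foci against control had 14 to 23 higher (14 without control replicate 2) and 4 to 7 lower (4 without control replicate 1), with medians of 0.08 to 0.16, and oval cells against foci 1 to 3 higher (1 without foci replicate 4 or 5) and 27 to 30 lower, with medians of -0.22 to -0.18.

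Of 32 named members, some changed sign with an adjusted p under 0.05 on at least 1 of the scales compared (log2 difference). With cyclic loess these were, in oval cells against control, Atp5f1b -0.45, Ndufab1 -0.28, Atp5mc2 -0.24, Cox6a1 -0.23, Uqcrfs1 -0.23, Cox4i1 -0.053 and Sdhc -0.32, and, in foci against control, Atp5f1b -0.12, Cox6a1 -0.27, Uqcrfs1 -0.018, Ndufa6 -0.0044 and Sdhc -0.28. With the ribosomal centring they were, in oval cells against control, Atp5f1b -0.99, Ndufab1 -0.999, Atp5mc2 -0.97, Cox6a1 -0.79, Uqcrfs1 -0.91, Ndufa12 -0.58, Cox5a -0.86, Ndufb7 -0.94, Atp5f1d -0.97, Cox7a2l -0.46, Cox8a -0.85, Uqcrc1 -0.95, Cox4i1 -0.73, Cox5b -0.92, Ndufc2 -0.96 and Sdhc -0.99, and, in foci against control, Atp5f1b -0.53, Uqcrb -0.59, Ndufb3 -0.51, Ndufv2 -0.75, Atp5mk -0.36, Cox6a1 -0.70, Uqcrfs1 -0.55, Ndufa12 -0.50, Cox5a -0.13, Atp5f1c -0.77, Sdhd -0.74, Ndufa6 -0.54, Atp5mg -0.53, Ndufb7 -0.28, Cox6c -0.68, Atp5f1d -0.43, Ndufv1 -0.50, Cox7a2l -0.36, Ndufs1 -0.43, Cox8a -0.044, Uqcrc1 -0.19, Cox4i1 -0.37, Cox5b -0.69, Ndufc2 -0.36 and Sdhc -0.81. A further 7 in oval cells against control and 5 in foci against control changed sign with cyclic loess, and 4 in oval cells against foci with the ribosomal centring (Atp5mc2 -0.11, Cox6a1 -0.085, Cox7a2l -0.10 and Ndufa12 -0.081), none of which passed on either scale. Leaving out 1 array changed the sign of 8 named members in oval cells against control, 3 in foci against control and 3 in oval cells against foci, none of them past the test with or without that array.

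No paired analysis was possible because the labels give no replicate numbers within groups that pair arrays across groups. Dim members near the limit of 300, such as Cox6c and Ndufv3, are limited by signal over background.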
